A study of Homo sapiens with 6 samples.

Results

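Mitophagy is the selective removal of mitochondria by autophagy. Receptor proteins in the mitochondrial membranes bind proteins of the ATG8 family on the growing autophagosome, and in a second route the kinase PINK1 marks damaged mitochondria with phosphorylated ubiquitin, which cargo adaptors then read. Red cell precursors clear their mitochondria this way as they mature, with BNIP3L as a main receptor, and BNIP3 and BNIP3L are known targets of the hypoxia-inducible factors, whose oxygen sensors are iron-dependent enzymes. Genes of these routes were chosen by name: the receptors BNIP3, BNIP3L, FUNDC1, FUNDC2, BCL2L13, FKBP8 and PHB2, and the regulators PINK1, FBXL4 and USP30. They are 10 of 62252 annotated genes, and 86 of 251612 annotated transcripts that could be matched to the files belong to them.

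The cells were K562, an established line of human erythroid leukemia cells, grown in suspension. Cells of the Chelator group received the cell-permeable iron chelator 21H7 at 10 µM overnight, and those of the DMSO group the same volume of the solvent DMSO. Each group had 3 libraries of polyadenylated RNA, described as biological replicates, with 78.6 to 90.4 M estimated counts in DMSO and 85.4 to 101.1 M in Chelator (M, 1e+06). Libraries are numbered as labelled, and values are given in the order 1, 2, 3. No genetic change separated the groups, and one line at one dose and one time limits what the comparison covers. The 9 erythroid markers examined, GATA1 and the fetal globin genes among them, summed to 9815 to 10898 TPM (a transcript level scaled by transcript length and library size) in DMSO and to 12777 to 13597 TPM in Chelator. Nearly all of that sum, and its higher level in Chelator, came from the globin genes HBG1, HBG2 and HBZ; GATA1 was at 164 to 178 TPM in DMSO and 151 to 164 TPM in Chelator, and the erythroid genes LMO2 (87.0 to 102 against 56.6 to 58.6 TPM), KLF1 (77.8 to 87.4 against 47.7 to 52.9 TPM), TAL1 (48.7 to 61.7 against 42.9 to 46.1 TPM) and EPOR (10.5 to 12.6 against 7.49 to 9.01 TPM) were lower in every Chelator library. Their part in the results below was not tested. The 8 markers of other cell types summed to 64.5 to 71.3 TPM in DMSO and to 50.5 to 55.5 TPM in Chelator, nearly all of it from EPCAM at 45.6 to 68.8 TPM, while MS4A1 was at 0 in every library. In bulk RNA, fewer cells of a kind and less RNA per cell cannot be told apart. The typical sequenced fragment, estimated from the median gap between annotated and effective transcript length, was 252 to 264 bases in DMSO and 200 to 218 bases in Chelator; a treatment effect and an effect of fragment length cannot be told apart here.

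Because BNIP3 is a textbook target of the hypoxia-inducible factors, the windows around the start sites of the genes were read for the 5-base core of the hypoxia response element, in its forms ACGTG and GCGTG, on both strands. RefSeq windows (build GRCh38.p14, 250 bases before to 50 after a start) were held for 7 of the 10 genes, 11 windows in all; BNIP3L, PINK1 and FKBP8 have none in the table. Of all 35116 windows in that table, 21.4% held ACGTG, 36.5% held GCGTG and 48.4% held at least one of them. The stretches before the start that carry a core in these genes are shown 5′ to 3′ on the gene's strand, with the cores in capitals; a core on the other strand reads CACGT or CACGC here.
BNIP3, chr10:131982008-131982081, minus strand: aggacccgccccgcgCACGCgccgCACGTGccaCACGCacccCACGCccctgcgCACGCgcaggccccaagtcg
FUNDC2, chrX:155026784-155026843, plus strand: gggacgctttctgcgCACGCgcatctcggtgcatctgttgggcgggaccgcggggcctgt
BCL2L13, chr22:17638725-17638756, plus strand: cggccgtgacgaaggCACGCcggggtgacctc
USP30, chr12:109052467-109052501, plus strand: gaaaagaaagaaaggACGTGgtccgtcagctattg

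The BNIP3 window held 6 core matches between 143 and 104 bases before the start, of which those beginning 134 and 133 bases before it overlap as a palindrome that reads ACGTG on both strands. At least 6 matches were present in 0.923% of all windows. FUNDC2 had GCGTG on the other strand 45 bases before the start and again just after it, BCL2L13 had 1 match in 1 of its 3 windows and USP30 had 1 match in 1 of its 2 windows. In the windows of FBXL4, FUNDC1 and PHB2 neither form was present. A match describes these letters only, and the absence of a match says nothing of binding elsewhere.

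**Figure D1:**
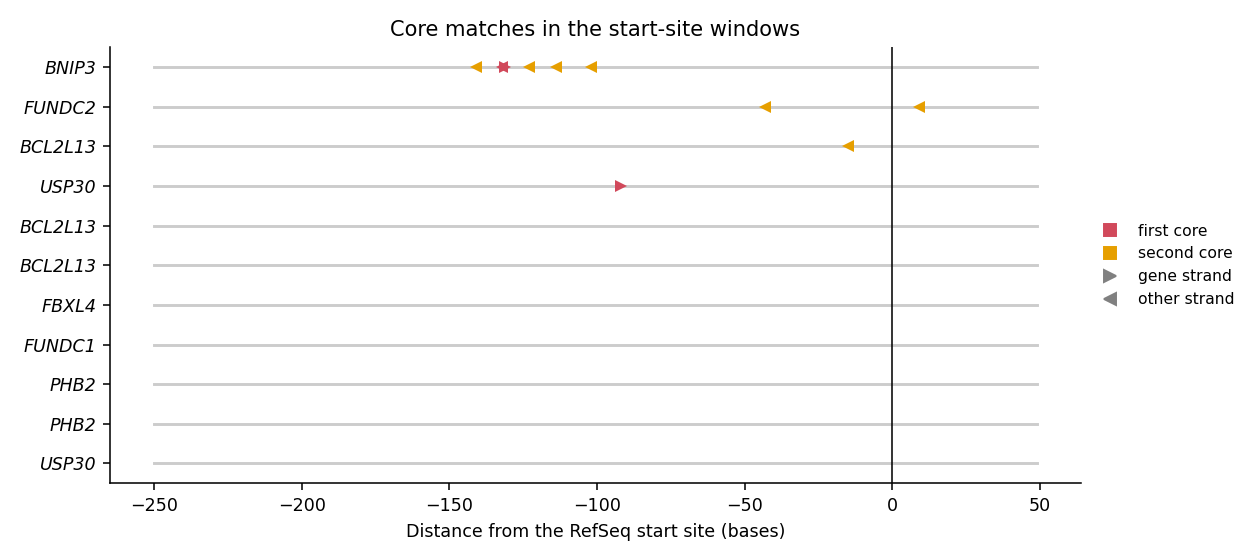
Core matches in the 11 RefSeq start-site windows, with the distance from the start site in bases on the horizontal axis and one line per window (genes with several windows are repeated). Red marks the form beginning with A, orange the form beginning with G, and arrows give the strand; 6 matches stand together in the BNIP3 window, while 7 windows hold none.

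Of the 10 genes, 6 were higher and 2 lower in Chelator at an adjusted p under 0.05 (DESeq2's Wald test over all 24542 genes with an adjusted p), and FUNDC1 and PHB2 did not pass. Over all genes tested, 19.5% were higher and 18.3% lower at this threshold. A gene that also had an absolute log2 fold change above 1 was called. By this rule 1 of the 10 genes, BNIP3L, was called, against 8.18% of all genes called higher and 2.6% called lower. The median log2 fold change was 0.30 for the 10 genes and 0.016 for all genes. The split over all genes was 4774 higher and 4486 lower, and with trends with GC content and length removed it was 3418 higher and 6171 lower. The median shifted by −0.142, and the 10 genes split into 4 higher and 2 lower. That fit used limma's test over 20144 genes, so the test and the set of genes changed as well. Centring on the mean change shifted the median by −0.106 and gave 5 higher and 3 lower among the 10.

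**Figure D2:**
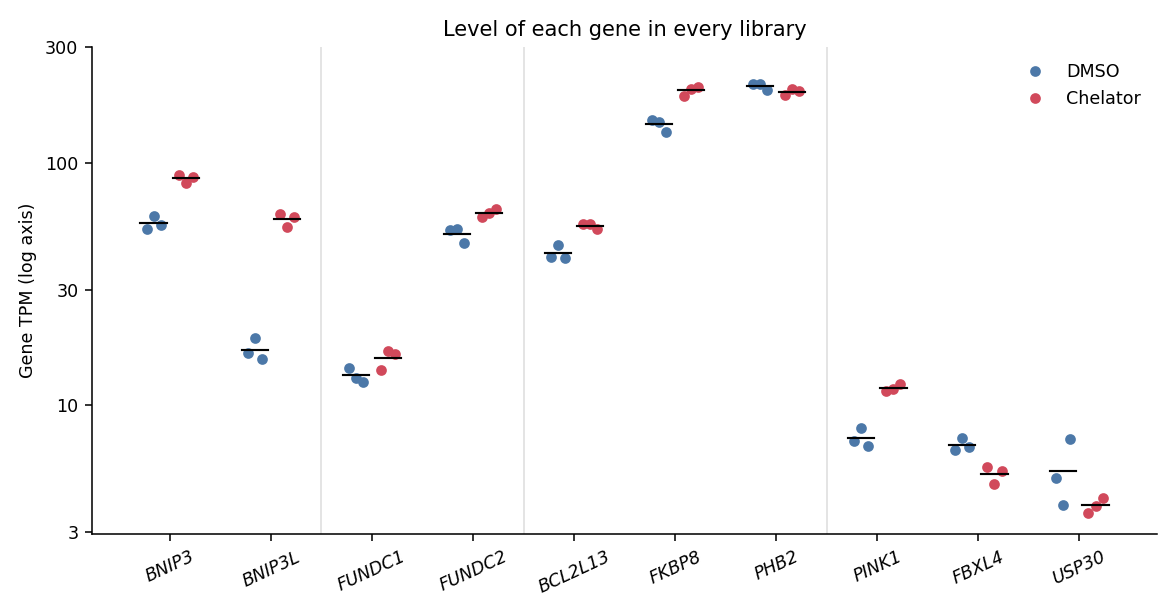
Gene TPM (log axis) of the 10 genes in each of the 3 DMSO (blue) and 3 Chelator (red) libraries, with black bars for group means. BNIP3L lay between 15.4 and 18.9 TPM in DMSO and between 54.4 and 61.3 TPM in Chelator, the widest separation among these genes.

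In order of level, the DMSO libraries ran from PHB2 at 207.9 ± 7.0 TPM (SD, n = 3) and FKBP8 at 144 ± 8.3 TPM through BNIP3, FUNDC2, BCL2L13, BNIP3L and FUNDC1 down to PINK1, FBXL4 and USP30 at 5.36 ± 1.7 TPM. The ranges of neighbours in this order overlapped only between PINK1 and FBXL4 and between FBXL4 and USP30. In Chelator, FKBP8 at 199 ± 9.4 TPM and PHB2 at 197 ± 5.9 TPM overlapped. FUNDC2, BNIP3L and BCL2L13 came next after BNIP3, and in that order each overlapped with its neighbour, so BNIP3L, which stood clearly below BCL2L13 in DMSO, had reached its range.

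BNIP3L (also called NIX; ENSG00000104765, chromosome 8, 26383054 to 26505636, plus strand) encodes the outer membrane receptor that red cell precursors use to clear mitochondria. Its level was 16.4, 18.9 and 15.4 TPM in the DMSO libraries and 61.3, 54.4 and 59.6 TPM in the Chelator libraries. The groups lay far apart, each Chelator library standing well above each DMSO library. The log2 fold change was 1.76 (SE 0.09), a 3.40-fold rise with an adjusted p of 4.67e-89 (DESeq2). When the null hypothesis was a change of up to 1 in either direction, the adjusted p was 2.87e-16.

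BNIP3 (chromosome 10, 131967684 to 131981967, minus strand), the paralog of BNIP3L and likewise an outer membrane receptor, was the more abundant of the pair in both groups. It was at 53.5, 60.2 and 55.3 TPM in DMSO and at 89.3, 83.0 and 87.4 TPM in Chelator, again with no overlap. A log2 difference of 0.59 (SE 0.08, DESeq2 adjusted p = 1.13e-12) corresponded to a 1.51-fold rise. The level of BNIP3 was 3.26, 3.18 and 3.59 times that of BNIP3L in the DMSO libraries and 1.46, 1.52 and 1.47 times in the Chelator libraries. On the log2 scale this ratio was lower in Chelator by 1.17, and the groups did not overlap. The exact two-sided permutation test gave p = 0.10, the smallest value that 3 against 3 libraries allow (0.20 adjusted over the 2 ratios tested).

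The rise of BNIP3L was uneven across its transcripts. The canonical transcript BNIP3L-201, with 3452 bases and 219 codons, went from 11.4, 12.6 and 11.4 TPM to 36.4, 31.5 and 34.5 TPM, and its share of the gene's TPM was 70.0 ± 3.7% in DMSO and 58.4 ± 0.8% in Chelator. BNIP3L-206, a coding transcript of 915 bases that begins 324 bases downstream of the canonical start and has 179 codons, had no counts (0) in DMSO but 840, 640 and 418 in Chelator 1, 2 and 3. Its share was 24.2, 19.3 and 13.5% of the gene's TPM in Chelator. Its mean share thus changed by 19.0 percentage points, the largest change of any transcript of the gene. Since the transcript was counted in Chelator libraries alone, it entered the usage test through the group where it is high, and these values are a description.

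Usage was tested in 9 of the 10 genes with edgeR's diffSpliceDGE. BNIP3L was the 1 gene that met the rule for a call (adjusted p under 0.05 and a mean share change above 5 percentage points), against 9.22% of all genes tested. It met the rule through BNIP3L-206 alone, which entered the test only where it is high and so had to differ, and nothing is rested on the call. With limma's diffSplice, over the same transcripts as edgeR's test, the adjusted p of BNIP3L was 0.093. Of the 885 overlapping 31-base stretches of BNIP3L-206, 64 occur in no other transcript of the 10 genes or of other genes with counts here, and reads from the remaining stretches were divided between transcripts by the authors' model. Leaving BNIP3L-206 and the other transcripts at 0 in one group out of the gene sums, an alternative chosen after the data had been seen, left BNIP3L called with a log2 fold change of 1.45 (DESeq2 adjusted p = 4.17e-59).

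Other transcripts of the pair differed in share and did not pass edgeR's test on all 6 libraries. BNIP3L-202, whose annotated start lies 7308 bases downstream and which also has 179 codons, held 28.6 ± 4.5% in DMSO and 14.0 ± 0.7% in Chelator, although its level was higher in Chelator (8.17 ± 0.18 TPM against 4.89 ± 1.3 TPM). The nonsense-mediated decay transcript BNIP3L-203 held 0, 0 and 1.3% in DMSO and 2.7, 7.1 and 11% in Chelator (edgeR adjusted p = 0.075); it passed with a filter of 50 counts (0.011), without DMSO 3 (0.015) and, with the filter at 2 libraries set after the data had been seen, without Chelator 1 (0.034). It too met the filter through the Chelator libraries alone, so these p-values support nothing. For BNIP3, the canonical BNIP3-201 held 76.5 ± 1.2% and 80.3 ± 0.7%, and BNIP3-204, a coding transcript of 1062 bases, held 18.5 ± 1.6% and 10.3 ± 0.8%. The level of BNIP3-204 overlapped between the groups, at 9.26 to 12.2 TPM in DMSO and 8.03 to 10.0 TPM in Chelator, whereas BNIP3-201 was at 40.3 to 46.0 TPM in DMSO and 67.4 to 71.4 TPM in Chelator. The usage test did not call BNIP3 (edgeR adjusted p = 0.61), while limma's diffSplice did (adjusted p = 0.0037).

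**Figure D3:**
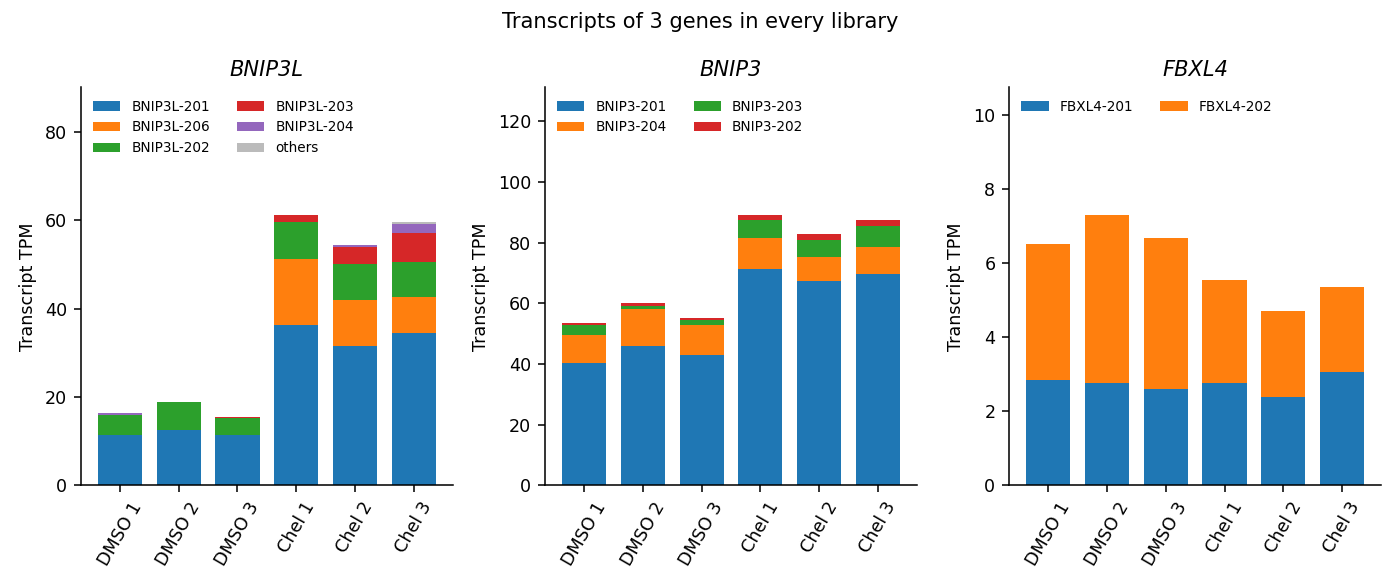
Stacked transcript TPM (vertical axis, linear from 0) of BNIP3L, BNIP3 and FBXL4 in the 3 DMSO and 3 Chelator (Chel) libraries, with transcripts under 1 TPM in every library pooled as others. BNIP3L-206 is seen only in the Chelator bars, and in FBXL4 the long transcript FBXL4-202 shrinks while FBXL4-201 overlaps between the groups.

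FUNDC1 and FUNDC2 are paralogous outer membrane proteins encoded on the X chromosome, of which FUNDC1 is the better known receptor, switched by phosphorylation under low oxygen. FUNDC1 (44523639 to 44542859, minus strand) was at 14.3, 12.97 and 12.5 TPM in DMSO and at 14.0, 16.7 and 16.2 TPM in Chelator. Chelator 1 fell inside the DMSO range, and the log2 difference of 0.20 (SE 0.14, 95% interval −0.07 to 0.47) did not pass (DESeq2 adjusted p = 0.26). It was 0.30 without DMSO 1 (adjusted p = 0.078), 0.11 without DMSO 2 (adjusted p = 0.59) and 0.09 when centred on the mean change (adjusted p = 0.67), and passed in no alternative. The canonical FUNDC1-201 held 99.7 ± 0.5% of the gene's TPM in DMSO and 99.7 ± 0.4% in Chelator.

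FUNDC2 (155025980 to 155060304, plus strand) was at 53.0, 53.5 and 46.7 TPM in DMSO and at 59.6, 62.0 and 64.5 TPM in Chelator. The groups were separate, and the log2 fold change was 0.25 (SE 0.09, DESeq2 adjusted p = 0.014). It did not pass in several alternatives. The log2 fold change was 0.15 when centred on the mean change (DESeq2 adjusted p = 0.25) and 0.12 with protein-coding transcripts only (DESeq2 adjusted p = 0.30). With GC and length trends removed it was 0.06 (limma adjusted p = 0.60). Without DMSO 2, DMSO 3 and Chelator 3 it was 0.20, 0.22 and 0.22 (DESeq2 adjusted p = 0.062, 0.093 and 0.083). Most of FUNDC2 came from transcripts annotated without a functional reading frame: FUNDC2-202, a nonsense-mediated decay transcript, held 45.9 ± 1.6% in DMSO and 42.9 ± 1.0% in Chelator, and FUNDC2-205, with no defined coding sequence, held 44.4 ± 1.3% and 47.9 ± 1.3%. The ratio of FUNDC1 to FUNDC2 was 0.269, 0.243 and 0.268 in DMSO and 0.234, 0.270 and 0.252 in Chelator, and it overlapped between the groups (exact two-sided permutation test, p = 0.70, also 0.70 adjusted over the 2 ratios).

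BCL2L13, FKBP8 and PHB2 are receptors of other families. BCL2L13 (chromosome 22, 17628855 to 17730855, plus strand), a BCL2-like outer membrane protein, was at 40.7, 46.0 and 40.7 TPM in DMSO and at 56.1, 55.9 and 53.2 TPM in Chelator. Every Chelator library was above every DMSO library, and the log2 fold change was 0.35 (SE 0.07, DESeq2 adjusted p = 2.64e-06), or 0.22 over protein-coding transcripts alone (adjusted p = 0.011). Nonsense-mediated decay transcripts held much of its TPM: BCL2L13-212 held 26.1 ± 1.1% in DMSO and 34.9 ± 1.1% in Chelator, and BCL2L13-204 held 24.1 ± 1.3% and 20.9 ± 1.8%. The canonical BCL2L13-201 held 15.1 ± 1.4% and 10.1 ± 0.3%, and the coding transcript BCL2L13-211 held 13.3 ± 0.8% and 12.3 ± 2.7%. None of BCL2L13-212, BCL2L13-204 and BCL2L13-201 has a 31-base stretch of its own, and the usage test did not call the gene (edgeR adjusted p = 0.80), although limma's diffSplice did (adjusted p = 0.0055).

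FKBP8 (chromosome 19, 18531751 to 18544077, minus strand), an outer membrane immunophilin that binds ATG8 proteins, was at 150.1, 148 and 135 TPM in DMSO and at 189, 202 and 207 TPM in Chelator. The groups did not overlap, and the log2 fold change was 0.43 (SE 0.08, DESeq2 adjusted p = 8.74e-07). Its mean transcript GC content, 65.8%, was the highest of the 10 genes, and with GC and length trends removed the log2 fold change was −0.02 (limma adjusted p = 0.81), which no longer passes and has the opposite sign. The 2 main transcripts, FKBP8-213 with 65.2 ± 2.9% in DMSO and 58.9 ± 0.6% in Chelator and FKBP8-201 with 25.8 ± 3.2% and 29.2 ± 1.4%, have no 31-base stretch of their own.

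PHB2 (chromosome 12, 6965327 to 6970780, minus strand), a prohibitin of the inner membrane that is exposed when the outer membrane ruptures, was at 211, 213 and 199.8 TPM in DMSO and at 190.5, 202 and 198 TPM in Chelator. These ranges overlapped, and the log2 difference of −0.11 (SE 0.08, 95% interval −0.26 to 0.04) did not pass (DESeq2 adjusted p = 0.26). It was −0.41 with GC and length trends removed (limma adjusted p = 2.67e-04), −0.22 when centred on the mean change (adjusted p = 0.037) and −0.17 without DMSO 2 (adjusted p = 0.015). It was smaller, with the same sign, in other fits: −0.03 without the length offset (adjusted p = 0.79), −0.06 without DMSO 1 (adjusted p = 0.61) and −0.07 both with TMM size factors (adjusted p = 0.52) and by edgeR (adjusted p = 0.47). The largest share change of a PHB2 transcript was 3.4 percentage points, below the 5 points that a usage call needs. PHB2-207 and PHB2-219 had 0 counts in every DMSO library and held 0.46 ± 0.18% and 0.29 ± 0.11% in Chelator, and so entered the usage test through Chelator alone. The retained-intron transcript PHB2-208 held 0.92 ± 0.37% in DMSO and 3.72 ± 1.18% in Chelator (edgeR adjusted p = 0.0047), but has no 31-base stretch of its own and did not pass without DMSO 2 (adjusted p = 0.10), Chelator 2 (0.065) or Chelator 3 (0.077). The canonical PHB2-203 held 86.9 ± 0.2% and 83.5 ± 1.9%.

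**Figure D4:**
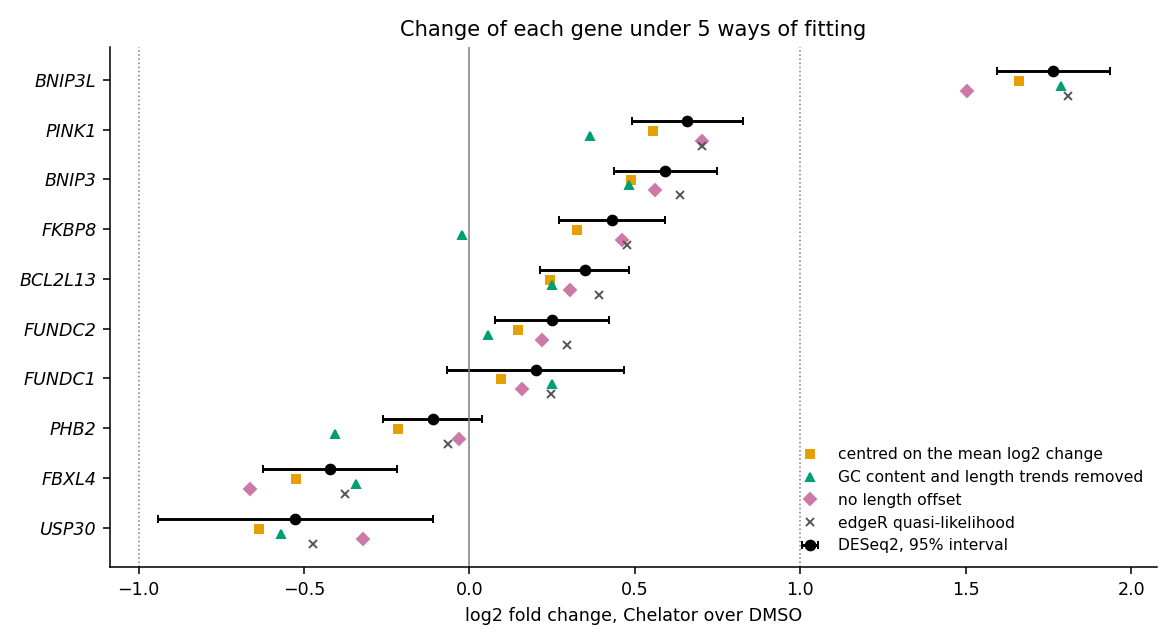
Log2 fold change of each gene, Chelator over DMSO, by DESeq2 with its 95% interval (black) and by 4 alternative fits (coloured marks); dotted lines stand at an absolute log2 fold change of 1. BNIP3L lies beyond 1 in all 5 fits, and the mark of FKBP8 with GC and length trends removed lies at −0.02.

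Of the regulators, PINK1 (chromosome 1, 20633458 to 20651511, plus strand) encodes the kinase that accumulates on depolarised mitochondria and phosphorylates ubiquitin there. It was at 7.12, 8.05 and 6.81 TPM in DMSO and at 11.5, 11.7 and 12.2 TPM in Chelator. The lowest Chelator library was above the highest DMSO library, and the log2 difference was 0.66 (SE 0.09, DESeq2 adjusted p = 2.58e-13); with GC and length trends removed it was 0.37 (limma adjusted p = 0.0017). The transcript PINK1-201 held 99.4 ± 0.1% in DMSO and 98.3 ± 0.6% in Chelator. PINK1-AS, an antisense noncoding gene, shares 1907 exonic bases with PINK1 on the opposite strand; it had 629, 637 and 621 counts in DMSO and 474, 433 and 377 in Chelator, with −0.79 as its log2 fold change (DESeq2 adjusted p = 2.37e-07). The strand setting of the libraries is not given in the sources used here, so reads of the 2 genes within the shared bases may not be separable, and their part in either value was not tested.

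FBXL4 (chromosome 6, 98868535 to 98948006, minus strand) is the substrate-binding subunit of the ubiquitin ligase that turns over BNIP3 and BNIP3L protein. Its level was 6.52, 7.31 and 6.69 TPM in DMSO and 5.54, 4.72 and 5.36 TPM in Chelator. It was lower in every Chelator library, and the log2 fold change was −0.42 (SE 0.10, DESeq2 adjusted p = 2.08e-04), or −0.66 without the length offset (adjusted p = 1.58e-09). The 8058-base FBXL4-202 was at 3.67, 4.53 and 4.08 TPM in DMSO and at 2.76, 2.33 and 2.30 TPM in Chelator. The 2810-base FBXL4-201, which has the same number of codons (621), was at 2.86, 2.77 and 2.61 TPM in DMSO and at 2.78, 2.39 and 3.06 TPM in Chelator, so the groups were separate for the long transcript and overlapped for the short one. The share of FBXL4-201 was 40.2 ± 3.1% and 52.7 ± 3.9%, which edgeR did not call (adjusted p = 1.00) and limma's diffSplice did (adjusted p = 0.020).

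USP30 (chromosome 12, 109023089 to 109088023, plus strand), the outer membrane deubiquitinase that opposes the PINK1 route, was at 4.99, 3.86 and 7.24 TPM in DMSO and at 3.59, 3.82 and 4.14 TPM in Chelator. DMSO 3 stood high and DMSO 2 lay inside the Chelator range. The log2 fold change was −0.53 (SE 0.21, DESeq2 adjusted p = 0.037), but without single libraries it ran from −0.77 without DMSO 2 (adjusted p = 4.00e-05) to −0.22 without DMSO 3 (adjusted p = 0.43), and it did not pass without any 1 of the other libraries either. It was −0.64 when centred on the mean change (adjusted p = 0.0080), −0.32 without the length offset (adjusted p = 0.019), −0.28 over protein-coding transcripts (adjusted p = 0.24) and −0.47 by edgeR's quasi-likelihood test (adjusted p = 0.19). The canonical USP30-201 was at 3.08, 3.08 and 2.72 TPM in DMSO and at 2.41, 2.59 and 2.58 TPM in Chelator. In DMSO 3 the short transcripts USP30-202 and USP30-208 reached 30.9% and 24.5% of the gene's TPM from 85.1 and 27.8 counts, against 11.8 to 18.6% and 2.2 to 5.3% in the other DMSO libraries.

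The wider pathway was read from 6 lists of 53 genes in all, each of which had an adjusted p. Of these, 17 were higher, 17 lower and 19 did not pass at an adjusted p under 0.05 (DESeq2), and 5 were called, all higher: ULK1, SQSTM1, OPTN, MAP1LC3B and MAP1LC3B2. Over all genes the shares were 19.5% higher and 18.3% lower at that threshold, with 8.18% called higher and 2.6% called lower, so the 5 calls are near the background. With GC and length trends removed 13 were higher and 23 lower; ULK1 (0.85), SQSTM1 (0.96) and OPTN (0.96) were then below the log2 fold change of 1, while TOMM40 (−1.01) and MIEF1 (−1.05) were called lower. Centred on the mean change, 13 were higher and 20 lower, and the 5 calls were joined by MIEF1, which was lower. Over transcripts of at least 500 bases SQSTM1 was not called (0.97). CALCOCO2 was also called by edgeR, with TMM size factors and without DMSO 1, DMSO 3 or Chelator 2.

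The adaptors and the ATG8 family had the highest medians of the 6 lists. All 5 ubiquitin-binding cargo adaptors rose, with a median log2 fold change of 0.98. SQSTM1 (p62) went from 89.8, 90.3 and 88.1 TPM to 214, 224 and 267 TPM (log2 fold change 1.36, SE 0.10, DESeq2 adjusted p = 8.63e-43). OPTN, which binds phosphorylated ubiquitin chains, went from 7.02, 7.58 and 6.91 TPM to 15.9, 17.2 and 15.4 TPM (log2 fold change 1.14). No DMSO library reached a Chelator library for either gene. NBR1, at 0.33, did not pass when centred on the mean change or without DMSO 1 or Chelator 1.

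In the ATG8 family 3 of 7 genes rose and the others did not pass, with a median of 0.74; with TMM size factors and by edgeR 5 were higher. MAP1LC3B, whose protein LC3B is the usual marker of autophagosomes, went from 52.9, 58.3 and 54.9 TPM to 137, 185 and 199 TPM (log2 fold change 1.61, SE 0.11, DESeq2 adjusted p = 2.01e-45), or 1.06 without the length offset. GABARAPL1 rose by 0.74 on the log2 scale. MAP1LC3B2, a near-identical intronless copy of MAP1LC3B with 3 to 7 counts in DMSO libraries and 21 to 38 in Chelator libraries, is uncertain because reads of the copies can be divided between them.

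Among the 12 genes of receptor turnover and phosphorylation, 4 rose, 2 fell and 6 did not pass, with a median of 0.03. Without the length offset 4 were higher and 7 lower with a median of −0.20, and over protein-coding transcripts 5 were higher and 4 lower. With TMM size factors 6 were higher and 2 lower, and by edgeR 5 were higher and 2 lower, each with a median of 0.08. The median was −0.07 both when centred on the mean change and with GC and length trends removed. ULK1, the kinase that starts autophagy and phosphorylates FUNDC1, went from 7.76, 7.23 and 6.99 TPM to 16.4, 17.1 and 19.3 TPM (log2 fold change 1.23, SE 0.10, DESeq2 adjusted p = 1.10e-30). PGAM5, a phosphatase of the same list, was lower, at 133 to 150 TPM in DMSO and 97.9 to 107 TPM in Chelator (log2 fold change −0.50, DESeq2 adjusted p = 8.91e-12). RBX1 and SKP1, subunits of the ligase that holds FBXL4, rose by 0.70 and 0.36 on the log2 scale, while CUL1, its scaffold, fell by 0.39; over protein-coding transcripts RBX1 was at 0.26. PPTC7, the phosphatase that works with FBXL4 on the receptors, was at 18.5 to 21.4 TPM in DMSO and 17.1 to 18.9 TPM in Chelator and did not pass (log2 fold change −0.15, DESeq2 adjusted p = 0.14), but passed when centred on the mean change (−0.25), without the length offset (−0.18) and without Chelator 1 (−0.20).

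In the PINK1 arm 2 of 13 genes rose, 6 fell and 5 did not pass, with a median of −0.15; with GC and length trends removed 1 was higher and 10 lower, with a median of −0.31. TOMM40 and TOMM70, parts of the import complex on which PINK1 is held, fell by 0.60 each on the log2 scale. TOMM20 was lower as well (log2 fold change −0.47). TOMM7, another part of that complex, was higher, at 269 to 349 TPM in DMSO and 380 to 485 TPM in Chelator (log2 fold change 0.49, DESeq2 adjusted p = 8.39e-04). Of the 8 genes of mitochondrial fission and fusion 5 fell and 1 rose, with a median of −0.36. The gene that rose, MIEF2 (0.49), did not pass without DMSO 1, Chelator 2 or Chelator 3, when centred on the mean change or with GC and length trends removed. The list was led by MIEF1, which recruits the fission enzyme DNM1L, at −0.90 (SE 0.08, DESeq2 adjusted p = 5.55e-31) and by the inner membrane fusion protein OPA1 at −0.63. Of the 8 other proposed receptors 4 fell and 2 rose, with a median of −0.30; the largest 2 changes that passed were those of NIPSNAP1 (0.53) and NLRX1 (0.53). NIPSNAP1 was at 0.33 with GC and length trends removed. NLRX1 (DESeq2 adjusted p = 0.034) did not pass in that fit (0.17), when centred on the mean change, with the replicate block (adjusted p = 0.066) or without DMSO 1, DMSO 2, Chelator 1 or Chelator 3, which left 1 gene of the list higher.

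For reference, 9 of 10 genes known to respond to hypoxia rose and 7 were called, with a median of 1.41, against 19.5% of all genes higher and 8.18% called higher. CA9, one of the 7, met the count filter through the Chelator group alone. With GC and length trends removed 8 were higher, 1 was lower and 6 were called; the lower gene was the glucose transporter SLC2A1, at −0.22 there and at 0.21 without that step; it also did not pass without DMSO 1, DMSO 2, Chelator 1 or Chelator 3, over transcripts of at least 500 bases or when centred. When centred on the mean change 8 were higher and 5 called, and 5 were called when tested against a change of 1. NDRG1, a stress-response gene, went from 0.631, 1.00 and 0.823 TPM to 22.6, 15.5 and 17.4 TPM (log2 fold change 4.49). The other genes called were ANKRD37 (1.69), the collagen prolyl hydroxylase subunit P4HA1 (1.54), the histone demethylase KDM3A (1.1) and the kinase PDK1 (1.03), which restrains pyruvate dehydrogenase. PDK1 and KDM3A lay near the threshold: KDM3A was not called when centred or without Chelator 1, and PDK1 was not called in either of the fits with centring or trend removal, without the length offset, over protein-coding transcripts or without DMSO 3 or Chelator 3. VEGFA went from 30.6, 28.8 and 26.5 TPM to 157, 189 and 201 TPM, and CA9 from 0 in all DMSO libraries to 226, 208 and 177 counts. The list shares its libraries with the values of BNIP3 and BNIP3L above.

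**Figure D5:**
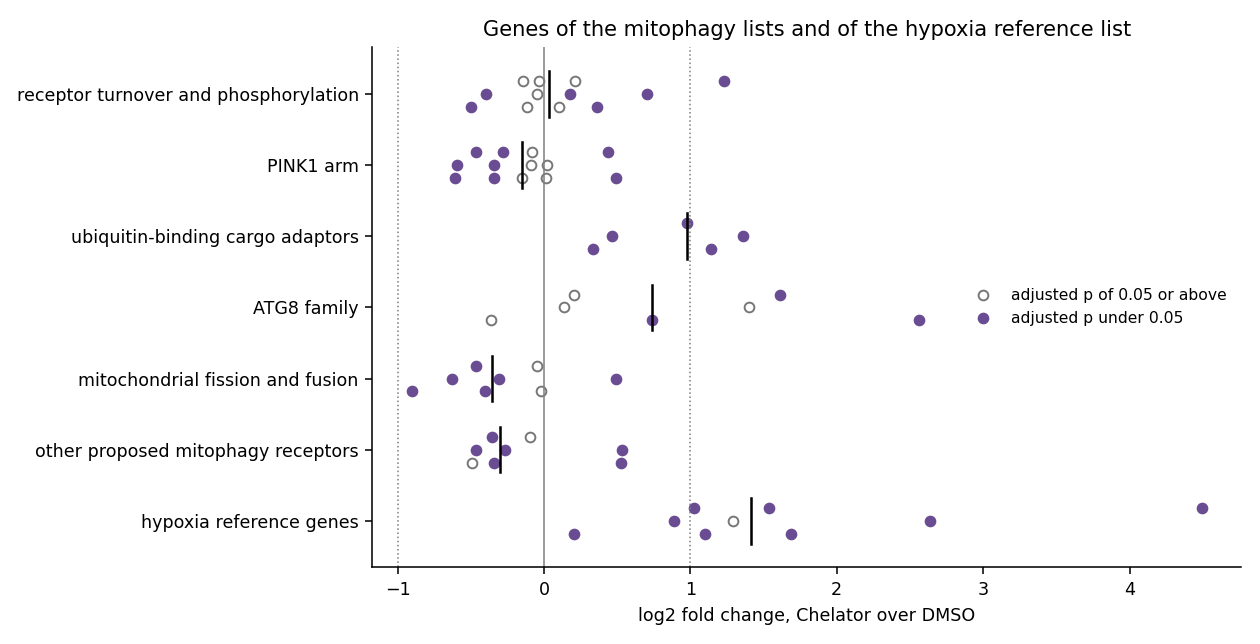
Log2 fold change, Chelator over DMSO, of the genes of the 6 pathway lists and of the hypoxia reference list, filled where the DESeq2 adjusted p was under 0.05; black bars are list medians and dotted lines an absolute log2 fold change of 1. All 5 cargo adaptors lie right of 0, and 5 of the 8 fission and fusion genes are filled and left of 0; CA9, at 0 counts in DMSO, is not drawn.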

How the data were processed

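The authors quantified paired-end reads with salmon (version 1.10.2 in the submitters' processing notes, which also list the build hg38) and deposited, per transcript and library, an estimated count and a TPM value, which is the estimated count divided by salmon's effective length and scaled per library. The annotation and any bias correction are not given in the sources used here. Columns of comparisons by the authors were not used.

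Transcript identifiers were looked up in GENCODE release 44 (GRCh38); 433 of 252045 had no match. Expected counts were summed per gene and rounded. DESeq2 1.42.0 (R 4.3.3) compared Chelator with DMSO, 3 libraries each, over genes with a total above 10, with average transcript length as an offset and Benjamini-Hochberg adjustment over all genes. Transcript usage was tested with edgeR 4.0.16 over transcripts with at least 10 counts in 3 libraries, with limma 3.58.1 as an alternative, and paralog ratios by exact permutation in Python 3.11.15. Both count scripts were tested on simulated data. The depth of 78.6 to 101.1 M counts (M, 1e+06) gave at least 572 counts per gene and library for each of the 10 genes.

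Genes were named by rule: the 10 genes, their transcripts with a mean share of at least 10% in a group or past the usage test, list genes that were called or had the 2 largest changes of a list, overlapping genes with at least 10 counts, and the 3 genes most like each of the 2 genes with the largest change; further transcripts and list genes were named after their values were seen. The genes, lists and tests were chosen with earlier results of these data known. Groups came from the labels. An item of the lists is not reported here.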

Additional observations from a re-analysis of the deposited data

How the results depend on the processing

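The call of BNIP3L held in every fit run, with log2 fold changes of 1.45 to 1.83, and the number of the 10 genes called was 1 in each, except 8 when no fold threshold was set. The number with an adjusted p under 0.05 was 8, between 6 and 8 without single libraries, and 1 when the null hypothesis was a log2 change of up to 1. For the pathway lists 5 genes were called, 5 to 6 without single libraries, 2 when tested against 1, 34 with no fold threshold and 4 with GC and length trends removed, where ULK1, SQSTM1 and OPTN were lost and TOMM40 and MIEF1 were called lower; 34 had an adjusted p under 0.05, 32 to 33 without single libraries and 2 when tested against 1. FKBP8 turned to −0.022 with GC and length trends removed; the cause was not tested. Transcript usage met the rule in 1 of the 10 genes, BNIP3L, through a transcript counted in Chelator alone, in 4 with limma's diffSplice (BCL2L13, FKBP8, FBXL4 and BNIP3; the cause was not tested) and in 0 to 1 without single libraries, 0 being reached without any 1 Chelator library, where BNIP3L-206, at 0 in DMSO, could not reach 3 libraries, so these 3 fits say nothing of its stability. With the filter at 2 libraries, set after the data had been seen, BNIP3L met the rule again without Chelator 1, 2 and 3 (adjusted p 3.0e-04, 0.0013 and 1.7e-04), as did BCL2L13 without Chelator 1. The log2 ratio of BNIP3 to BNIP3L differed by −1.17, and by −1.21 to −1.12 without single libraries. It differed by −0.94 with counts per kilobase of the mean length and by −1.13 over protein-coding transcripts. That of FUNDC1 to FUNDC2 differed by −0.05, by 0.12 over protein-coding transcripts (reversed) and by −0.10 to 0.0045 without single libraries, 0.0045 without Chelator 1; neither sign was called.

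Replicate numbers were shared between the groups. Deviations of same-numbered libraries correlated by −0.075, 0.130 and 0.101, and those of differently numbered libraries by −0.162 to 0.082. These values cannot decide whether the libraries were paired. The labels name no pairs, and the libraries were not taken as pairs. With a replicate block 1 of the 10 genes was called and 8 had an adjusted p under 0.05, 5 and 33 of the pathway genes did so, and transcript usage was called in 1 gene; no call among the 10 genes changed. Whether depth limits the 10 genes was not tested; MAP1LC3B2 and the short USP30 transcripts rest on few counts.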

Other observations

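Several annotated genes overlap the 10 genes on the opposite strand. Besides PINK1-AS, F8 shares 97 exonic bases with FUNDC2 and had 82, 117 and 80 counts in DMSO and 224, 188 and 205 in Chelator, yet its log2 fold change after the length offset was 0.25 (DESeq2 adjusted p = 0.61). PNMA2 shares 330 exonic bases with BNIP3L and had 60.6 to 89.1 counts (log2 fold change −0.30, DESeq2 adjusted p = 0.53), few beside the counts of BNIP3L. USP30-AS1, 2 noncoding genes at BNIP3 and 2 at FKBP8 held at most 46 counts in any library and none passed. Sequence shared with other genes was small: between 0% (FUNDC1) and 4.72% (PHB2) of the 31-base stretches of a gene occur in another gene with counts in these libraries.

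Among the 9654 protein-coding genes whose normalized counts averaged at least 500, those whose log2 normalized counts followed BNIP3L most closely over the 6 libraries were EXOC3L2, TAF8 and TP53INP2, each with a Pearson correlation of 1.00 when rounded. Their log2 fold changes were 1.21, 0.40 and 2.06. For PINK1 they were CARS1, NABP1 and IL18BP, likewise at 1.00, with log2 fold changes of 0.84, 0.48 and 0.90. The 6 points fall into 2 groups, so these correlations mostly restate that each gene separates the groups, and nothing is read from them.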
